A study of Mus musculus with 2 samples.

Results

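The genes described here are 9 members of the heme synthesis and iron uptake machinery: the aminolevulinate synthases Alas2 and Alas1, the cytosolic enzymes Alad, Uros and Urod, the mitochondrial enzymes Cpox and Fech, the transferrin receptor gene Tfrc and the mitochondrial iron importer gene Slc25a37 (mitoferrin 1). They were chosen by name out of 31053 genes in the matrices, and all 9 were detected. Their unique molecular identifiers (UMIs, each standing for one captured RNA molecule) were counted in barcodes with at least 2000 UMIs and under 10% mitochondrial UMIs. A barcode was called erythroid where globin genes made up 10% or more of its UMIs.

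The libraries were made from whole aorta-gonad-mesonephros (AGM) regions of E11 mouse embryos, the site where the first hematopoietic stem cells arise, and the study asked what loss of the receptor PDGFRβ changes there. One library came from PDGFRB +/+ (WT) embryos and one from PDGFRB -/- (KO) embryos, whose deletion is constitutive and present in every cell. The line was kept as heterozygotes on C57BL/6J, and how many embryos entered each library is not given in the sources used here. With 1 library per genotype there was no replicate check and no test between WT and KO, so all 95% intervals given (exact Poisson, binomial or conditional binomial) cover counting error only.

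The WT library held 8253 passing barcodes, of which 761 (9.22%) were erythroid, and the KO library 8165, of which 221 (2.71%) were erythroid. Median depth was 16784 and 19738 UMIs in erythroid barcodes and 12695.5 and 12202.5 in all others. The globin threshold fell in a sparse region, with 8 WT and 11 KO barcodes at 1 to 10% globins. Levels are given in CPM (UMIs per 1000000 UMIs of a population) or, with globins left out of the total, in non-globin CPM and neither is divided by gene length, as the tags come from the 3′ ends of molecules. Pdgfrb stood at 43.1 CPM in WT and 7.09 in KO, and where its 3′ tags lie relative to the deletion was not examined. The study took KO cells with detected PDGFRβ expression out before its analysis. Here the 801 passing KO barcodes with a Pdgfrb UMI, 4 of them erythroid, were kept. Xist was read in 580 of the WT erythroid barcodes and in 4 of those of KO, while genes of the Y chromosome were read in 0 and 92 of them. Embryo sex as these genes show it and genotype therefore cannot be told apart here. A total of 20 barcode sequences passed in both libraries, 2 of them erythroid in WT and 0 in KO.

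**Figure D1:**
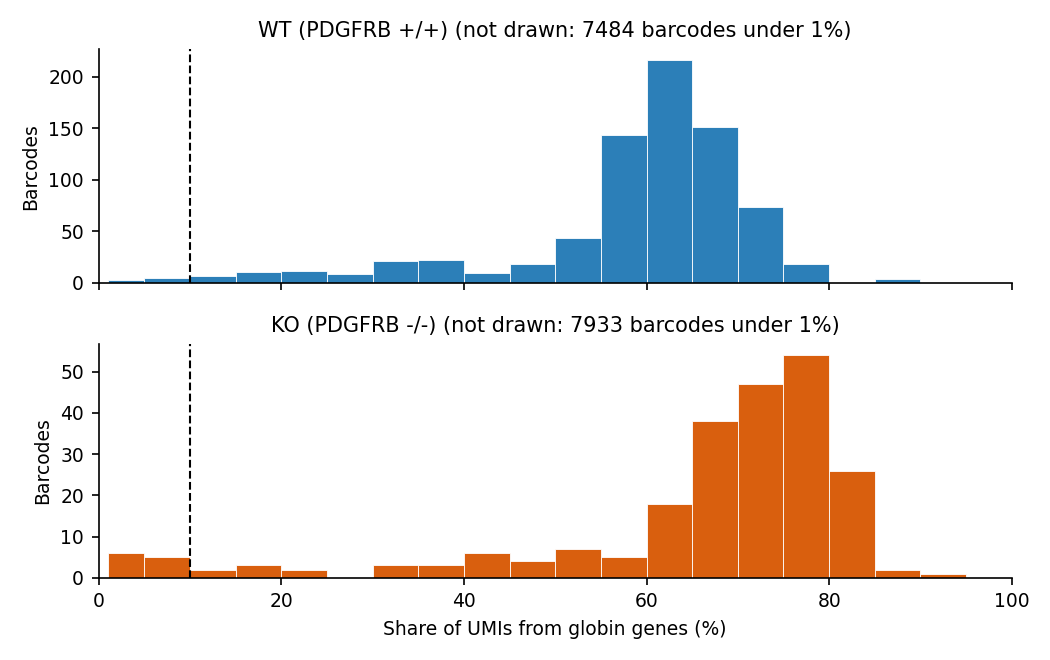
Number of passing barcodes with 1% or more globins (vertical axis) by the share of their UMIs that came from globin genes (horizontal axis, %), with WT above and KO below and the 10% threshold as a dashed line. Most erythroid barcodes lay between 50 and 80% globins, 85.0% of them in WT and 76.5% in KO, and the KO distribution sat further to the right.

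Most listed erythroid genes outside the globins were also higher in the erythroid barcodes. In CPM, 8 of 10 erythroid regulators and 11 of 12 erythroid membrane genes were 2-fold or more higher there in both libraries. Among all genes, 2.45% in WT and 2.01% in KO were. The regulator Bcl11a went the other way, at 12.7 CPM in WT and 12.4 in KO erythroid barcodes, against 85.3 and 93.1 in the others. Slc4a1 (band 3, the anion exchanger of the red cell membrane) stood at 428 CPM in WT erythroid barcodes and 344 in KO, against 0.890 and 0.509 in the other barcodes. Klf1, an erythroid transcription factor, stood at 112 and 64.0, against 0.854 and 1.24. Of the β-like globin UMIs, 90.8% in WT and 86.6% in KO were of the embryonic genes Hbb-y and Hbb-bh1, which yolk sac-derived primitive red cells express. Of the α-like globin UMIs, the embryonic gene Hba-x made up 66.8% in WT and 46.4% in KO, so that the libraries differed in the globins of their erythroid barcodes, and the part of this in the differences between the libraries given below was not tested. Some barcodes carried mixed signal, as 108 WT and 24 KO erythroid barcodes held 3 or more markers of another class (macrophage, granulocyte, endothelial, neural, muscle, epithelial or stromal).

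Heme is built from glycine and succinyl-CoA in a relay between mitochondrion and cytosol. The first and rate-limiting step is made by aminolevulinate synthase, which exists as a housekeeping isozyme (ALAS1) and an erythroid one (ALAS2), and the last step, insertion of iron by ferrochelatase (FECH), is back in the mitochondrion. Red cell precursors take up iron bound to transferrin through the transferrin receptor and pass it into mitochondria through mitoferrin 1. The transcripts of Alas2, Tfrc and some other iron genes carry iron-responsive elements, short hairpins bound by iron regulatory proteins. Such an element in the 5′ end of a transcript blocks translation when iron is scarce, while those in the 3′ end of the Tfrc transcript protect it from decay.

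The sequences shown first are hairpins in the transcripts, where iron acts on this pathway, and GATA-type motifs before the start sites, which erythroid transcription factors of the GATA family bind. Hairpins were searched in the longest basic protein-coding transcript of each gene in GENCODE M21 (GRCm38) as a CAGTGN loop other than CAGTGG, closed by 5 base pairs, with an unpaired C below them and at least 3 pairs in the 5 below that. This search found 62 genes among 21875 (0.283%). Among the 9 members, Alas2 held 1 hairpin in its 5′ untranslated region, at chrX:150547459-150547485 on the plus strand. Tfrc held 4 in its 3′ untranslated region on the plus strand, at chr16:32631220-32631246, chr16:32631599-32631625, chr16:32631664-32631690 and chr16:32631711-32631737. The other 7 members held no match to this pattern. The elements are shown with the 6-base loop in capitals.
Alas2 hairpin: tggttcgtcctCAGTGCagggcaacag
Tfrc hairpin 1: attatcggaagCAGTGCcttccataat
Tfrc hairpin 2: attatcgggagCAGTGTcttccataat
Tfrc hairpin 3: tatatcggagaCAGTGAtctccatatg
Tfrc hairpin 4: attatcgggaaCAGTGTttcccataat
The loop of Alas2 had the same letters as that of the first Tfrc element, and the 4 Tfrc loops differed from each other in the last base alone, with the second and the fourth alike. The same pattern was found in the 5′ untranslated regions of the ferritin genes Fth1 and Ftl1 and of the iron exporter gene Slc40a1.

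Promoters of 7 members were found in the RefSeq table (GRCm38.p6), with 11 start sites, and Slc25a37 and Fech were not in it. The motif AGATAA was searched on both strands in the 250 bases before each start, as were its variants TGATAA, with a first T, AGATAG, with a last G, and TGATAG, with both. A match occurred before 3 of the 11 starts (27.3%), those of Alas2, Cpox and the inner start of Uros, and before 26.5% of all 32851 promoters, so the share among the members was near that of all promoters. The CACCC motif CCACACCC, on either strand, was before none of the 11 starts and before 3.20% of all promoters. The stretches before Alas2 (chrX:150547167-150547374, plus strand, ending where the GENCODE exon starts, which is before the RefSeq start) and Cpox (chr16:58669958-58670207, plus strand) are shown with the matches in capitals.
Alas2 upstream: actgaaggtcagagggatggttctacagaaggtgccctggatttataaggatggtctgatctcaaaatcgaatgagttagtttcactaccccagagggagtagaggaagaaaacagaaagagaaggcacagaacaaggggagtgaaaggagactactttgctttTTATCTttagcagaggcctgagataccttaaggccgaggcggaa
Cpox upstream: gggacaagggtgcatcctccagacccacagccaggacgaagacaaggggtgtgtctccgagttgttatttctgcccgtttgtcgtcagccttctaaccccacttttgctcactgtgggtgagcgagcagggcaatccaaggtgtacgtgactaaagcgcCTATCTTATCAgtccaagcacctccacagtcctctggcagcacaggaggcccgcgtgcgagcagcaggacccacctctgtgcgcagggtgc
In Cpox a pair of matches shared 1 base and lay 91 to 81 bases before the start, and in Alas2 1 match lay 86 to 81 bases before it. Neither start of Alas1 held a match. These are matches of letters only, and 3′ libraries do not show which start a transcript used.

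In GENCODE M21 (GRCm38) the genes lie at chrX:150547375-150570638 (Alas2, plus strand), chr9:106233455-106248654 (Alas1, minus), chr4:62509169-62519918 (Alad, minus), chr7:133686243-133710072 (Uros, minus), chr4:116989965-116994413 (Urod, minus), chr16:58670292-58717636 (Cpox, plus), chr16:32608920-32632794 (Tfrc, plus) and chr14:69241848-69285112 (Slc25a37, minus). Those of Alas2, Alas1, Uros, Cpox and Slc25a37 overlap genes annotated on the opposite strand, and that of Slc25a37 also Gm20236 on its own strand, so that reads in the shared stretch of those 2 could be split.

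The first step of the pathway was split between the isozymes by cell type. Alas2 stood at 658 CPM (95% interval 645 to 672) in WT erythroid barcodes and at 555 (534 to 577) in KO, against 0.883 (0.732 to 1.06) in the other WT barcodes and 0.531 (0.416 to 0.668) in the other KO barcodes. The log2 ratio of erythroid over other barcodes was 9.54 (9.28 to 9.81) in WT and 10.03 (9.69 to 10.39) in KO. Among erythroid barcodes, 760 of 761 in WT and 218 of 221 in KO carried an Alas2 UMI, with medians of 12 and 11 UMIs per barcode. So did 1.27% and 0.428% of the other barcodes. After each barcode was thinned to 2000 UMIs these shares were 76.0% and 63.8% in erythroid and 0.267% and 0.0755% in other barcodes.

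The few Alas2 UMIs outside the erythroid barcodes were set against what erythroid RNA free in the suspension would carry. Globins made up 4.08% of the UMIs of near-empty droplets (100 or fewer UMIs) in WT and 2.10% in KO. Had Alas2 kept its erythroid ratio to globins, the globin UMIs of the other barcodes would have come with 90.9 Alas2 UMIs in WT and 45.1 in KO, and 120 and 73 were observed. Alas2 thus stood at 1.32 and 1.62 times this level, and Slc4a1 at 2.05 and 2.51 times. For the other 8 members the observed number was 14.0 to 9878 times this level, so such RNA would make up 0.0101% to 7.13% of their UMIs there. The profile of the near-empty droplets was also subtracted, scaled to the globin UMIs of the other barcodes. This removed 76.1% of the Alas2 UMIs of those barcodes in WT and 91.2% in KO. Part of these UMIs lay in a few barcodes with more globins, at most 8 in WT and 11 in KO. With only other barcodes under 2% globins kept, the log2 ratio of Alas2 rose from 9.54 to 9.92 in WT and from 10.03 to 10.89 in KO. The globin UMIs of these few barcodes also entered the scaling, so free RNA and mixed barcodes were not separated.

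Alas1 had the opposite distribution. It stood at 3.64 CPM (2.72 to 4.77) in WT erythroid barcodes and 3.16 (1.77 to 5.21) in KO, against 22.1 (21.3 to 22.9) and 18.5 (17.8 to 19.2) in the other barcodes. The log2 ratio was -2.60 (-3.02 to -2.21) in WT and -2.55 (-3.39 to -1.82) in KO. A ratio of this size was common among all genes: globins took 54.9% of erythroid UMIs in WT and 64.4% in KO and the median gene had a log2 ratio of -2.08 and -2.42. In non-globin CPM the log2 ratio of Alas1 was -1.45 (-1.88 to -1.06) and -1.06 (-1.90 to -0.33), with medians over all genes of -0.93 and -0.94.

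Most of the Alas1 UMIs in erythroid barcodes sat in those with markers of another class. In WT, 44 of the 52 Alas1 UMIs were in the 108 such barcodes, and the 653 remaining barcodes held 8, or 0.740 CPM (0.319 to 1.46). In KO, 14 of the 15 were in the 24 such barcodes, and the 197 remaining barcodes held 1. Alas2 made up 99.5% (99.3 to 99.6) of all Alas1 and Alas2 UMIs in WT erythroid barcodes and 99.4% (99.1 to 99.7) in KO, counted per molecule from 3′ tags, and 3.85% and 2.80% in the other barcodes.

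The middle enzymes were higher in erythroid barcodes but read in all populations. Alad (aminolevulinate dehydratase), which joins 2 aminolevulinate molecules, stood at 302 CPM in WT erythroid barcodes and 181 in KO, against 40.6 and 37.4 in others, a log2 ratio of 2.90 (2.84 to 2.96) in WT and 2.28 (2.17 to 2.38) in KO. Uros (uroporphyrinogen III synthase), which closes the ring, stood at 81.8 and 37.7 against 10.7 and 8.26, a log2 ratio of 2.94 (2.82 to 3.05) and 2.19 (1.96 to 2.42). Urod (uroporphyrinogen decarboxylase) stood at 275 and 176 against 46.1 and 42.3, a log2 ratio of 2.58 (2.52 to 2.63) and 2.05 (1.95 to 2.16). These 3 cytosolic enzymes were thus read at levels from 8.26 to 46.1 CPM outside the erythroid barcodes and at 4.15 to 7.66 times as much within them.

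The mitochondrial end of the pathway differed more between populations. Cpox (coproporphyrinogen oxidase) stood at 229 CPM in WT erythroid barcodes and 155 in KO, against 14.6 and 15.3 in others, a log2 ratio of 3.97 (3.89 to 4.05) and 3.34 (3.22 to 3.46). Fech stood at 280.5 and 216 against 12.2 and 11.9, a log2 ratio of 4.52 (4.44 to 4.60) and 4.18 (4.07 to 4.30). The intervals of both genes lay above those of Alad, Uros and Urod in each library.

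The iron genes marked the range. Tfrc stood at 74.96 CPM (70.5 to 79.6) in WT erythroid barcodes and 70.6 (63.2 to 78.6) in KO, against 21.3 and 19.4 in others, a log2 ratio of 1.81 (1.71 to 1.91) and 1.87 (1.70 to 2.03). It was read in 60.2% of erythroid barcodes of each library and in 23.9% and 22.4% of the others. Slc25a37 stood at 742 (728 to 756) and 702 (678 to 726) against 10.6 and 12.5, a log2 ratio of 6.13 (6.05 to 6.21) and 5.81 (5.72 to 5.89). Thus Tfrc had the smallest and, after Alas2, Slc25a37 the largest ratio among the 8 members that were higher in erythroid barcodes.

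In all, 8 of the 9 members were 2-fold or more higher in erythroid barcodes in WT, where 2.45% of 13887 genes with 100 or more UMIs were, and the same number in KO, where 2.01% of 13808 genes were. Alas1 was 2-fold or more lower in both, as were 85.8% of genes in WT and 90.7% in KO. The median log2 ratio over the members was 2.94 in WT and 2.28 in KO. Erythroid barcodes were defined by globins alone, and no member entered that definition.

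**Figure D2:**
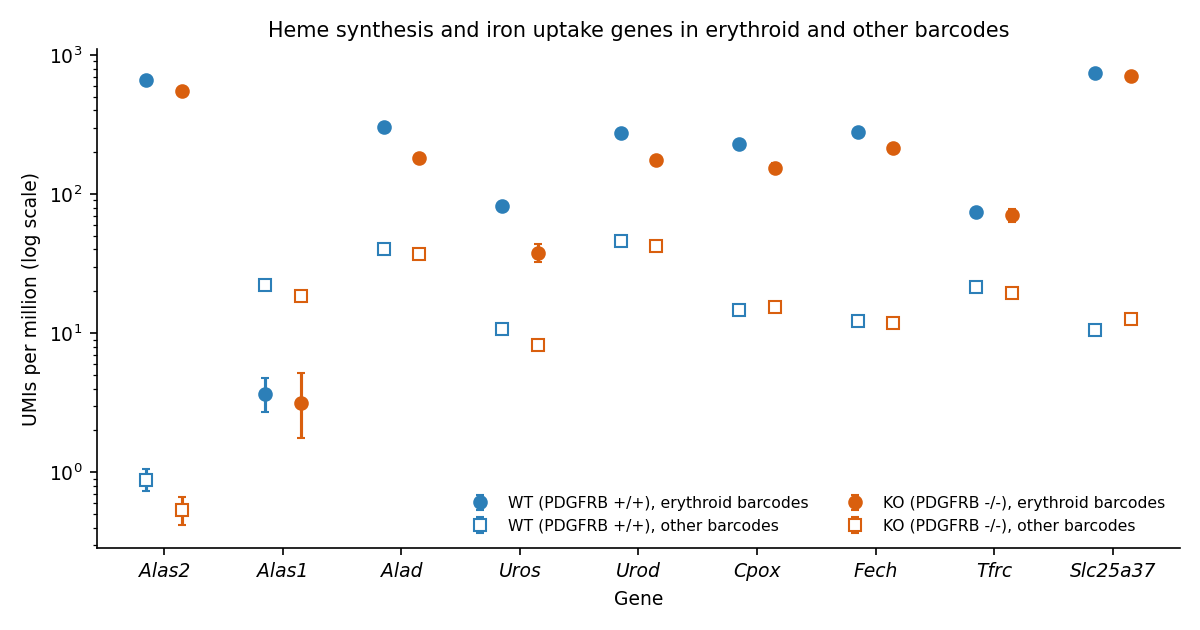
CPM (vertical axis, log scale) of each gene in erythroid barcodes (filled circles) and other barcodes (open squares) of WT and KO, with exact 95% Poisson intervals as bars. Erythroid levels lay above the others for 8 genes, by the most for Alas2, and below them for Alas1.

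Among the other barcodes, populations were gated by 10 markers each, a barcode being named where 4 or more markers were detected and no other class had as many. Levels in non-globin CPM were compared over the 7 populations with 50 or more barcodes in each library: erythroid, macrophage-like, endothelial-like, neural-like, muscle-like, epithelial-like and a remainder with no class. The erythroid population came first in both libraries for the 8 members that were higher there, and last for Alas1. Alas1 was highest in macrophage-like barcodes, at 41.3 (35.2 to 48.0) in WT and 24.4 (19.0 to 30.8) in KO. In WT its interval there lay above those of the other 6 populations, while in KO it overlapped those of the remainder, at 18.6 (17.7 to 19.4), and of endothelial-like and muscle-like barcodes. The erythroid value, 8.08 (6.03 to 10.6) in WT and 8.87 (4.96 to 14.6) in KO, lay below all others in WT and overlapped those of epithelial-like and neural-like barcodes in KO. Outside the 7 populations, the 6 WT and 8 KO barcodes gated by granulocyte and mast cell markers held 38 Alas1 UMIs in each library, at 158 (112 to 217) and 171 (121 to 235) non-globin CPM, above every other population. These UMIs lay in 4 barcodes of each library, and the barcode with the most held 16 of them in WT and 18 in KO.

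Among the non-erythroid populations of the 7, Tfrc was highest in epithelial-like barcodes of WT, at 38.8 (33.1 to 45.2), followed by macrophage-like barcodes at 33.4 (28.0 to 39.5) and muscle-like barcodes at 30.6 (25.9 to 35.9), which overlapped. In KO muscle-like barcodes came first at 32.2 (28.8 to 35.9) and overlapped macrophage-like barcodes at 27.5 (21.8 to 34.3) and epithelial-like barcodes at 23.3 (18.0 to 29.7). Endothelial-like barcodes were lowest in both, at 13.6 (10.6 to 17.02) and 8.04 (5.91 to 10.7). Alad was highest in epithelial-like barcodes, at 58.8 (51.7 to 66.6) and 66.6 (57.4 to 76.9), and lowest in macrophage-like barcodes, at 21.0 (16.8 to 25.97) and 19.5 (14.7 to 25.3). The genes most enriched in the epithelial-like gate differed between the libraries, led by Dppa5a, Cldn7 and Cldn6 in WT and by Krt14, Krt5 and Sfn in KO. Whether this gate held the same kinds of cells in both was not tested.

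Among these 6, Alas2 was highest in endothelial-like barcodes, at 2.20 (1.14 to 3.84) in WT and 3.93 (2.49 to 5.90) in KO. Those counts were 12 and 23 UMIs, each in 3 barcodes. Globins there made up 0.1305% and 0.323% of UMIs, the highest shares among the non-erythroid populations, and the part of red cell RNA in this signal was not tested. Slc25a37 ranged from 7.76 to 15.1 in the non-erythroid populations of WT and from 10.3 to 20.2 in KO, where endothelial-like barcodes were again the highest. Its log2 ratio of KO over WT in endothelial-like barcodes was 0.63 (0.20 to 1.08), from 71 WT and 118 KO UMIs. The barcode with the most held 6 of them in WT and 12 in KO. Ppbp and Clec1b were among the genes most enriched in this gate in WT but not in KO, and whether it held the same mix of cells was not tested.

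**Figure D3:**
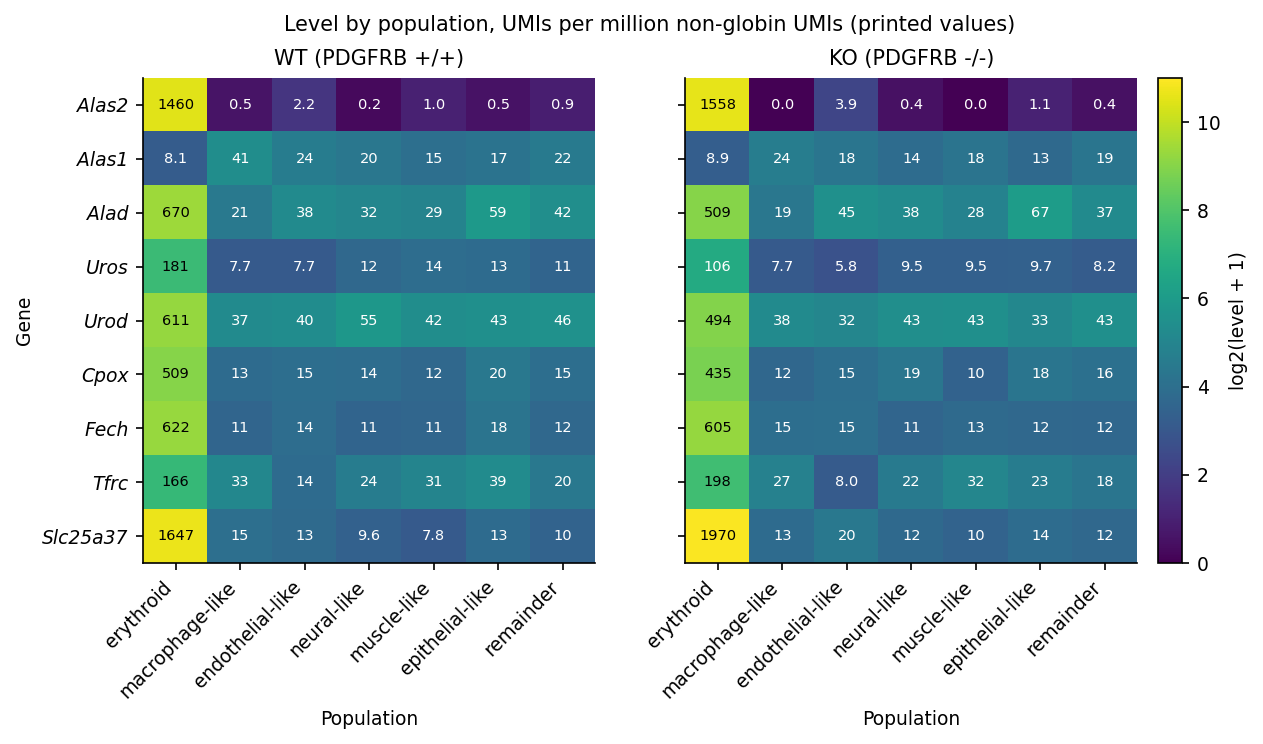
Level of each gene (rows) in each population (columns) of WT and KO, in non-globin CPM; the numbers are the levels and the colour is log2 of the level plus 1. The erythroid column is the highest for every gene but Alas1, whose highest value is in macrophage-like barcodes. Globin shares are left out of the total.

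Likeness of pattern was measured as Pearson's r of log2 (level + 1) over the 14 values of 7 populations in 2 libraries, which share their libraries and depth and are a description only. The genes most like Alas2 were Cfap57 (r = 0.995), Hbq1b, a theta globin gene (0.994), Trim10 (0.993), Epb42, which encodes the membrane protein 4.2 (0.993), and Gm32051 (0.992). Hbq1b was among the globin genes that defined the erythroid barcodes, so its pattern was in part set by that rule. Those most like Tfrc were Fam117a (0.930), Pole3 (0.929), Ypel3 (0.929), Stradb (0.928) and Dyrk3 (0.925). Those most like Alas1 were Cd302 (0.952), Sh3gl1 (0.932), Akr1a1 (0.928), Ppm1m (0.927) and Arf1 (0.922), all with their highest level in macrophage-like barcodes. Within the 9 genes, r with Alas2 ran from 0.816 for Tfrc to 0.988 for Slc25a37, and was -0.71 for Alas1.

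The other genes of the pathway were read the same way, as counts of genes 2-fold or more higher or lower in erythroid barcodes of both libraries. The all-gene shares in CPM are those given above, and in non-globin CPM 6.03% of genes were 2-fold or more higher and 46.9% lower in WT, and 5.65% and 47.2% in KO. All counts are given on both scales, and the 9 members gave 8 higher and 1 lower on each. Of 9 further heme synthesis genes and carriers, 5 were higher and 1 lower in CPM, and 8 were higher and 0 lower in non-globin CPM. Ppox, the enzyme before ferrochelatase, stood at 72.3 CPM in WT erythroid barcodes and 60.0 in KO, against 18.8 and 19.8. Fam210b stood at 291 and 296 against 16.7 and 14.5, and Abcb10, a mitochondrial transporter, at 72.4 and 52.2 against 9.04 and 8.56. At the low end, Abcb6 stood at 9.45 and 6.32 against 7.34 and 8.37, and Clpx, a subunit of a mitochondrial protease, at 12.9 and 12.9 against 40.4 and 45.2.

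Of 14 iron uptake genes other than Tfrc, 2 were higher and 6 lower in CPM, and 5 were higher and 3 lower in non-globin CPM. Slc39a8, a metal importer, stood at 128 CPM in WT erythroid barcodes and 86.8 in KO, against 4.05 and 3.69. Steap3, the endosomal ferrireductase, stood at 16.3 and 11.2 against 1.10 and 1.45. Exoc6, an exocyst subunit needed for transferrin receptor recycling, stood at 10.1 and 5.27 against 3.63 and 3.06. Tfr2, the second transferrin receptor, was read as 42 erythroid UMIs in WT and 1 in KO, or 2.94 and 0.211 CPM. The lowest were Steap2, with 5 erythroid UMIs in WT and 2 in KO (0.350 and 0.421 CPM), and Trf (transferrin), with 14 and 1 (0.980 and 0.211 CPM).

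Among genes of iron storage, export and sensing, 2 of 8 were higher and 4 lower in CPM, and 4 were higher and 1 lower in non-globin CPM. Fth1 (ferritin heavy chain) stood at 11180.4 CPM in WT erythroid barcodes and 11446 in KO, against 1197 and 1169 in the others. Ncoa4, the receptor for ferritin breakdown, stood at 151 and 147 against 27.01 and 23.3. Ftl1 (ferritin light chain) stood at 5614 and 5248 against 2746 and 2753, and Slc40a1 (ferroportin) at 17.7 and 11.8 against 15.7 and 9.20. Heph, a ferroxidase, stood at 3.01 and 3.37 against 21.6 and 20.6, and Aco1, which encodes iron regulatory protein 1, at 4.69 and 4.63 against 23.1 and 23.7. Of the transcripts found above to carry the hairpin, those of Alas2, Tfrc and Fth1 were 2-fold or more higher in erythroid barcodes of both libraries on either scale. In CPM the log2 ratio of Ftl1 was 1.03 (1.02 to 1.04) in WT and 0.93 (0.91 to 0.95) in KO, and that of Slc40a1 0.17 (-0.019 to 0.36) and 0.36 (-0.055 to 0.74). In non-globin CPM both were 2-fold or more higher too, with log2 ratios of 2.18 and 2.42 for Ftl1 and 1.32 and 1.85 for Slc40a1.

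Iron-sulfur cluster genes gave 3 of 12 higher and 5 lower in CPM, and 4 higher and 2 lower in non-globin CPM. The 3 were Glrx5, a glutaredoxin of cluster assembly, at 588 and 494 CPM against 138 and 144, Isca1 at 44.4 and 45.3 against 11.8 and 10.04, and Hscb, a co-chaperone, at 71.7 and 71.2 against 21.2 and 19.2. Hspa9 stood at 30.9 and 23.6 against 144 and 142, and Fdx1 at 8.12 and 5.27 against 47.3 and 45.1. Genes of heme breakdown, export and sensing gave 4 of 12 higher and 5 lower in CPM, and 5 higher and 3 lower in non-globin CPM. Blvrb (biliverdin reductase B) stood at 965 and 927 against 40.4 and 45.2, Hebp1 at 165 and 88.5 against 24.999 and 15.6, Slc48a1, a heme transporter, at 37.1 and 40.7 against 11.002 and 10.8, and Eif2ak1, the heme-regulated kinase, at 65.9 and 59.4 against 27.4 and 27.8. Hmox1 (heme oxygenase 1) stood at 2.31 and 1.47 against 24.1 and 22.0, and Hp (haptoglobin) was read as 4 and 2 erythroid UMIs (0.280 and 0.421 CPM). In CPM the median log2 ratio was 1.80 in WT and 1.16 in KO over the heme synthesis list, -1.46 and -1.74 over iron uptake, -0.93 and -0.998 over storage, export and sensing, -0.64 and -0.95 over iron-sulfur clusters, and -0.86 and -1.65 over heme breakdown, beside -2.08 and -2.42 over all genes. In non-globin CPM these medians were 2.95 and 2.65, -0.31 and -0.25, 0.22 and 0.49, 0.51 and 0.53, and 0.29 and -0.16, in the same order, beside -0.93 and -0.94. For reference, 8 of 10 erythroid regulators were higher and 1 lower in CPM, and 9 were higher and 1 lower in non-globin CPM. Of 12 erythroid membrane genes, 11 were higher and 0 lower in CPM, and 12 were higher and 0 lower in non-globin CPM.

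Between the libraries, all 9 members had lower values in KO than in WT erythroid barcodes in CPM. On that scale 83.4% of 6113 genes were lower in KO, with a median log2 ratio of -0.33, and globins took a larger share of the KO erythroid UMIs. For the members the median was -0.38. In non-globin CPM the median over all genes was 0.0055 and that over the members -0.039. On this scale 5 of the 9 members were lower in KO, as were 49.4% of the 6113 genes. The ratios below are on this second scale unless stated.

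The cytosolic enzymes stood lowest in KO. Uros had 181 non-globin CPM in WT erythroid barcodes and 106 in KO, a log2 ratio of -0.78 (-1.01 to -0.55), and 4.86% of genes lay below it. Alad had 670.2 and 509, a log2 ratio of -0.40 (-0.50 to -0.29), and Urod 611 and 494, a log2 ratio of -0.31 (-0.42 to -0.20). Cpox had 509 and 435, a log2 ratio of -0.22 (-0.34 to -0.11). None of these intervals held 0. In CPM Uros alone of the 9 was 2-fold or more lower in KO, at a log2 ratio of -1.12 (-1.35 to -0.89), as were 6.48% of all genes.

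Taken over all erythroid barcodes, the ends of the pathway and the iron genes did not share this shift. Within barcodes of 70% or more globins, described below, Alas2 at -0.42 and Fech at -0.32 were lower in KO too. Fech had 622 in WT and 605 in KO, a log2 ratio of -0.039 (-0.14 to 0.060), and Alas1, with 52 and 15 UMIs in all, had 8.08 and 8.87, a log2 ratio of 0.14 (-0.80 to 0.99). Alas2 had 1460.5 and 1558, a log2 ratio of 0.093 (0.030 to 0.16). Tfrc had 166 and 198, a log2 ratio of 0.25 (0.071 to 0.43), and Slc25a37 1647 and 1969.5, a log2 ratio of 0.26 (0.20 to 0.31). In CPM the ratios of the last 3 were -0.25 (-0.31 to -0.18), -0.087 (-0.27 to 0.091) and -0.081 (-0.14 to -0.024), so that their direction turned with the scale, as did that of Alas1 at -0.20 (-1.14 to 0.65).

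In the other barcodes globins took 0.0558% of UMIs in WT and 0.0381% in KO, and the median over all genes was 0.0069 in CPM. There 7 of the 9 members were lower in KO, as were 48.6% of 14901 genes. Uros had 10.7 and 8.26 CPM, a log2 ratio of -0.37 (-0.48 to -0.26), and Alas1 22.1 and 18.5, a log2 ratio of -0.26 (-0.33 to -0.18). Alad, Urod and Tfrc had log2 ratios of -0.12 (-0.17 to -0.063), -0.12 (-0.17 to -0.071) and -0.14 (-0.22 to -0.063). These values pool non-erythroid populations that differed. By population, Alad ran from -0.17 (-0.23 to -0.10) in the remainder to 0.26 (-0.011 to 0.53) in endothelial-like barcodes. Tfrc ran from -0.76 (-1.32 to -0.21) in endothelial-like to 0.072 (-0.21 to 0.36) in muscle-like barcodes. Fech at -0.045 (-0.14 to 0.055) and Cpox at 0.065 (-0.024 to 0.15) had intervals that held 0. Slc25a37 was higher in KO, at 10.6 and 12.5, a log2 ratio of 0.25 (0.15 to 0.35). Alas2 was lower at -0.73 (-1.17 to -0.30), over the few UMIs described above.

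**Figure D4:**
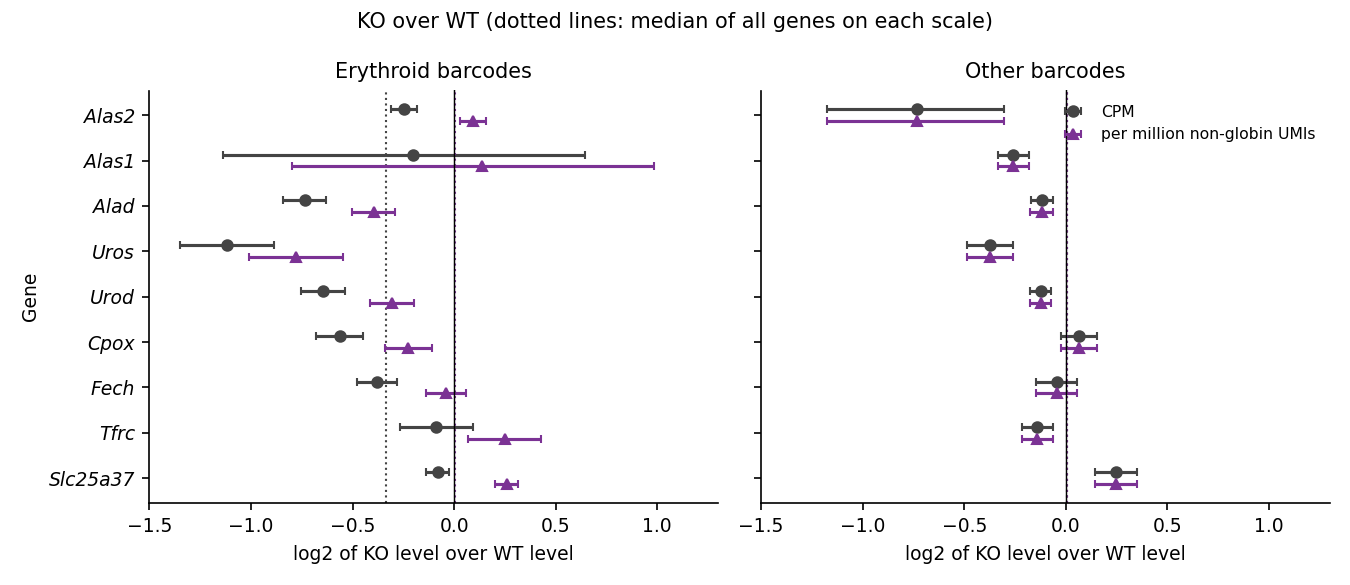
Log2 of the KO level over the WT level (horizontal axis) of each gene in erythroid and other barcodes, in CPM (circles) and in non-globin CPM (triangles), with exact 95% intervals of counting error as bars and the median of all genes as dotted lines. In erythroid barcodes the change of scale moved all genes to the right, and the intervals of Uros, Alad, Urod and Cpox stayed below 0 on both.

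Neighbouring genes of the pathway varied in the same comparison. Of the 9 further heme synthesis genes 6 were lower in KO erythroid barcodes in non-globin CPM, beside 49.4% of all genes. The lowest was Tmem14c, a porphyrinogen importer, with a log2 ratio of -0.84 (-0.92 to -0.76), followed by Slc25a38, a glycine importer, at -0.53 (-0.80 to -0.27). The highest was Fam210b at 0.37 (0.28 to 0.46), with Clpx at 0.33 (-0.11 to 0.75). Fth1 stood at 0.37 (0.36 to 0.39), Heph at 0.50 (-0.42 to 1.36), Ireb2 at -0.14 (-0.62 to 0.31) and Slc40a1 at -0.25 (-0.69 to 0.18). Among erythroid regulators, Hemgn had the lowest log2 ratio in KO at -1.05 (-1.14 to -0.95) and Gata1 stood at -0.83 (-1.19 to -0.49), while Tal1 stood at 0.29 (0.10 to 0.48).

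Erythroid barcodes of the libraries did not hold the same mix of globin shares. In WT, 72.9% had 50 to 70% globins and 12.6% had 70% or more, and in KO the figures were 30.8% and 58.8%. Barcodes under 50% globins held more stromal marker UMIs, 2443 and 1816 in non-globin CPM in WT at 10 to 30% and 30 to 50%, against 116 and 142 in the upper bins, and in KO 2730 and 1099 against 126 and 52.6. The members were therefore compared within the upper bins, which held 555 and 96 WT and 68 and 130 KO barcodes. Globin shares were still not matched between the libraries inside these bins. At 65 to 70% globins lay 151 of the 555 WT and 38 of the 68 KO barcodes. At 70 to 75% lay 74 of the 96 WT and 47 of the 130 KO barcodes. The part of this in the differences within bins was not tested.

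Within WT, levels in non-globin CPM differed between 50 to 70% and 70% or more globins, over a median of all genes of -0.24 (log2). Alas2 was higher in the upper bin, 1884 against 3603, a log2 ratio of 0.94 (0.85 to 1.02). Slc25a37 stood at 2144 and 3048 (0.51, 0.42 to 0.60), Fech at 819 and 1163 (0.51, 0.36 to 0.65), Uros at 241 and 313 (0.38, 0.087 to 0.66) and Urod at 802 and 1024 (0.35, 0.20 to 0.51). Cpox was lower in the upper bin, 698 against 463, at -0.59 (-0.82 to -0.37).

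The KO library gave the same directions for these genes, over a median of -0.098. Alas2 stood at 1718 and 2697, a log2 ratio of 0.65 (0.53 to 0.77). Slc25a37 had a log2 ratio of 0.38 (0.27 to 0.49), Fech 0.30 (0.11 to 0.50), Uros 0.40 (-0.070 to 0.89) and Urod 0.44 (0.22 to 0.66). Cpox stood at 835 and 412, at -1.02 (-1.26 to -0.79), and Tfrc at 357 and 203, at -0.81 (-1.16 to -0.47), with -0.38 (-0.78 to 0.0005) for Tfrc in WT. Alad stood at 0.0999 (-0.061 to 0.26) in WT and -0.057 (-0.26 to 0.15) in KO, both holding 0. Alas1 was read as 7 WT and 1 KO UMIs at 50 to 70% globins and as 0 in both at 70% or more, where the exact upper limits were 10.05 and 6.47 non-globin CPM.

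**Figure D5:**
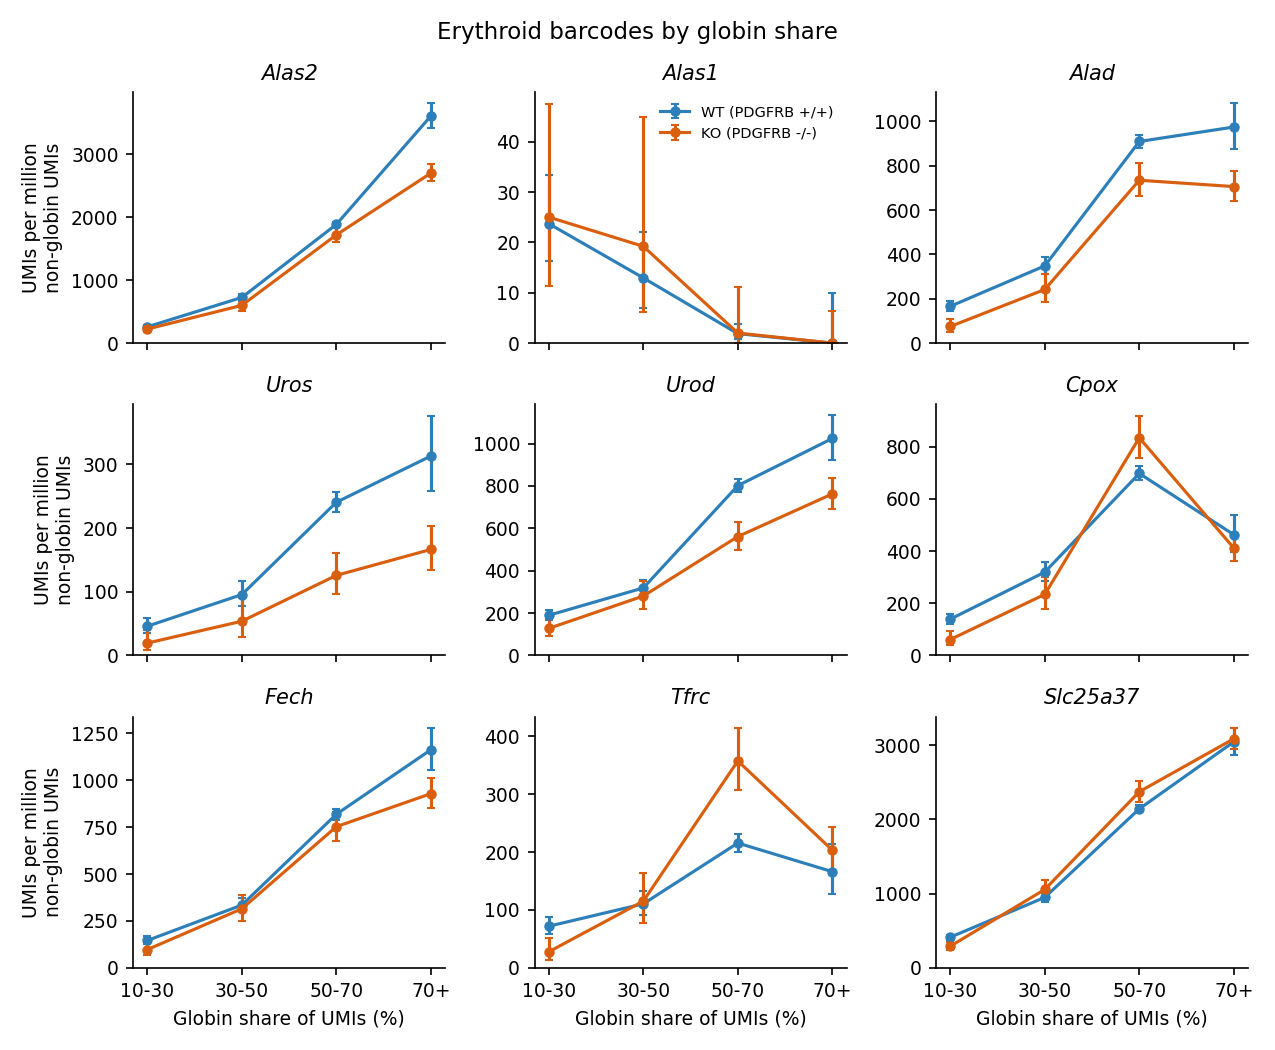
Level of each gene (vertical axis, non-globin CPM) in erythroid barcodes by globin share (horizontal axis, %) in WT and KO, with exact 95% Poisson intervals. Alas2, Slc25a37, Fech, Uros and Urod were higher in each bin than in the one before through all 4 bins, Cpox and Tfrc were highest at 50 to 70% globins, and Alas1 was near 0 in the upper bins.

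Between the libraries within these bins, the median over all genes was 0.052 and 0.041 (log2, KO over WT). Uros was lower in KO in both, at -0.94 (-1.33 to -0.57) and -0.91 (-1.32 to -0.51). Urod stood at -0.51 (-0.70 to -0.34) and -0.43 (-0.63 to -0.22), Alad at -0.31 (-0.47 to -0.15) and -0.47 (-0.67 to -0.26) and Alas2 at -0.13 (-0.24 to -0.031) and -0.42 (-0.52 to -0.31). Fech stood at -0.12 (-0.28 to 0.033) and -0.32 (-0.51 to -0.14). Alas2, whose ratio over all erythroid barcodes was above 0 on the same scale, was thus below 0 within each upper bin.

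The iron genes went the other way at 50 to 70% globins. Tfrc had 216 non-globin CPM in WT and 357 in KO there, a log2 ratio of 0.73 (0.49 to 0.96), and 166 and 203 at 70% or more, a log2 ratio of 0.29 (-0.17 to 0.76). Slc25a37 stood at 0.15 (0.058 to 0.24) and 0.019 (-0.090 to 0.13). Cpox was 0.26 (0.11 to 0.41) and -0.17 (-0.46 to 0.12). The study's figure legends give both libraries the same somite stage and call the WT a littermate control. With 1 library each, sex, handling and differences between embryos cannot be told apart from genotype in any of these differences.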

How the data were processed

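The authors deposited unfiltered UMI counts per gene and barcode for each library (10x Genomics Single Cell 3′ v3), made with Cell Ranger 3.1.0 against mm10/GRCm38. These raw counts were used as deposited. Barcodes with at least 2000 UMIs and under 10% mitochondrial UMIs were kept, a rule of this work and not the study's cell call, and 954 WT and 992 KO barcodes failed on the mitochondrial share. Erythroid barcodes had 10% or more UMIs from 10 globin genes. Counts were summed per population and library and divided by all UMIs or by non-globin UMIs. No doublet caller was run, and barcodes with markers of another class were counted instead. Shares of all genes used genes with 100 or more UMIs, with a count of 0 set to 0.5.

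Libraries held 179743201 (WT) and 174597654 (KO) UMIs. Ratios carry exact conditional binomial intervals, checked on counts simulated with Poisson error alone. Gathering of UMIs in single barcodes was not part of that check. The members and gene lists were chosen with earlier results of these data known, the class gate of 4 markers was set after the data were seen, and all 9 members are described. From other lists up to 4 genes with the highest and 2 with the lowest mean log2 ratio, and up to 2 at each end between libraries, were named, though some of these are not reported here. The 5 genes most like Alas2, Tfrc and Alas1 were named too, while the granulocyte and mast cell barcodes were added after their values were seen. Alternatives covered gates, filters, scaling (edgeR 4.0.16 TMM factors, median-of-ratios), thinning, free RNA and mixed barcodes. Python 3.11.15, numpy 2.4.6 and scipy 1.17.1 were used. Sequences came from RefSeq (GRCm38.p6) and GENCODE M21.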

Additional observations from a re-analysis of the deposited data

Results flagged for a closer look

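Slc25a37 was set apart because it moved in opposite directions between KO and WT in the erythroid and the other barcodes, in CPM (UMIs per 1000000). Its log2 ratio was -0.081 (-0.14 to -0.024) in erythroid barcodes and 0.25 (0.15 to 0.35) in other barcodes, each with a counting interval that did not hold 0. With 1 library per genotype the difference was not tested. In non-globin CPM the erythroid ratio was 0.26 (0.20 to 0.31), so the opposite directions were seen on the first scale alone.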

How the results depend on the processing

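The number of members higher in erythroid barcodes was 8 of 9 in both libraries under every alternative run, and each of the 234 recomputed erythroid over other ratios kept its sign. The size of 2 ratios varied most. Alas1 moved to -4.90 in WT and -6.14 in KO once erythroid barcodes with 3 or more markers of another class were left out, and Alas2 to 11.59 and 13.51 once free RNA was subtracted and to 7.72 and 9.06 with the erythroid gate at 30% globins.

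The comparison of KO with WT in erythroid barcodes depended on the scale. The count of members lower in KO went from 9 to 5 in non-globin CPM, with TMM factors, with median-of-ratios factors and within 50 to 70% globins. The members' median log2 ratio, -0.38 in CPM, was -0.039, -0.086, -0.078 and -0.12 in these 4, -0.53 as a mean over barcodes, -0.54 after thinning, -0.59 without barcodes holding markers of another class and -0.54 without KO barcodes holding a Pdgfrb UMI. Alas2 turned to 0.093, 0.047 and 0.055 and Slc25a37 to 0.26, 0.21 and 0.22 on the first 3 scales. Within 50 to 70% globins, chosen after seeing the data, Cpox turned to 0.26 and Slc25a37 to 0.15, and at 70% or more, likewise chosen, Slc25a37 to 0.019. In other barcodes Slc25a37 turned to -0.13 with the erythroid gate at 30%. The scaling alternatives shift all genes alike, by construction, and the cause of the other changes was not tested. Uros, Alad and Urod kept their sign under all alternatives, from -1.41 to -0.78, from -0.79 to -0.31 and from -0.73 to -0.31.

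With genes of 1 or more UMI in place of 100, the share of genes 2-fold or more higher in erythroid barcodes was 14.4% in WT and 21.7% in KO, and the share 2-fold or more lower in KO erythroid barcodes was 14.7%. Subtracting free RNA gave no value within erythroid barcodes, whose own RNA supplies the globins, and the bin of 70% or more gave no median, as Alas1 had 0 UMIs there. No paired analysis was possible because there was 1 library per genotype, and for the same reason no library could be left out. Depth limited Alas1, with 52 and 15 erythroid UMIs.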
